A study of Mus musculus with 2 samples.

Results

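The oligodendrocyte precursor genes described here are Olig1, Olig2, Sox10, Nkx2-2, Pdgfra, Cspg4, Ptprz1, Gpr17 and Lhfpl3. They are 9 of the 45578 genes in the deposited table. They were chosen by name, as genes known to mark the precursors of myelinating cells, with earlier results of these data known. The measurements are ribosome footprints from the polysomes of 2 control mouse brains at postnatal day 5 (n = 2, biological replicates of 1 group). Both animals were heterozygous for a disrupted mouse Smn gene, carried a human SMN2 transgene (Smn+/-; SMN2tg/0) and were of the FVB strain. The labels describe no other genotype or treatment, so the values give the level of each gene in this control brain and how far the replicate libraries differed. The libraries held 1866831 footprints in replicate 1 and 5261878 in replicate 2, a ratio of 2.82, so replicate 2 gives the narrower counting intervals throughout.

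Oligodendrocyte precursors are dividing glial cells that spread through the brain around birth and later give rise to the cells that make myelin. Their identity is set by a small group of transcription factors, and their division is driven largely by platelet-derived growth factor acting on its alpha receptor. As they stop dividing they pass through a stage marked by the receptor Gpr17 and then switch on the myelin genes. Several members are shared with other cells: Ptprz1 and Olig2 with radial glia and astrocytes, Cspg4 with pericytes, Pdgfra with fibroblasts of the meninges and Sox10 with Schwann cells. A whole brain was profiled and RNA abundance was not analysed here, so fewer cells of a type, less RNA per cell and less translation per RNA cannot be told apart.

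All 9 genes had footprints in both libraries, and all 9 passed the minimum mean count of 10 for testing. Together they held 3013 footprints in replicate 1 and 8176 in replicate 2. As a share of all footprints this came to 0.161% (Clopper-Pearson 95% interval 0.156 to 0.167) and 0.155% (0.152 to 0.159), which average 0.158% ± 0.00425 (SD, n = 2). Because these intervals overlapped, the summed share of library totals did not separate the libraries. The log2 ratios below use a scaling for composition that lowers replicate 2 relative to replicate 1 (factors 0.957 for replicate 1 and 1.04 for replicate 2). The sum was not compared on that scale. Ptprz1 supplied 54.3% of the summed count in replicate 1 and 63.5% in replicate 2, and the sum largely follows that gene. Without Ptprz1 the other 8 genes held 0.0738% of replicate 1 (0.0699 to 0.0778) and 0.0567% of replicate 2 (0.0547 to 0.0588), and these intervals did not overlap.

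Levels are given as CPM, the count scaled to a library total of 1000000 footprints. Their intervals are Clopper-Pearson 95% intervals, which cover counting error only and treat each footprint as an independent molecule. Copies made by PCR are not independent, so the intervals may be too narrow where such copies were kept. Log2 ratios are replicate 2 over replicate 1 after TMM scaling (trimmed mean of M values), which shifts every ratio to correct for composition, and their exact 95% intervals likewise cover counting error. The counts of each gene were compared with a two-sided exact binomial test, adjusted by the Benjamini-Hochberg method over 16427 genes, and a gene with an adjusted p under 0.05 is said to be called. Such a call says that the libraries differed at that gene by more than the counting noise of independent footprints. It does not compare conditions.

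**Figure D1:**
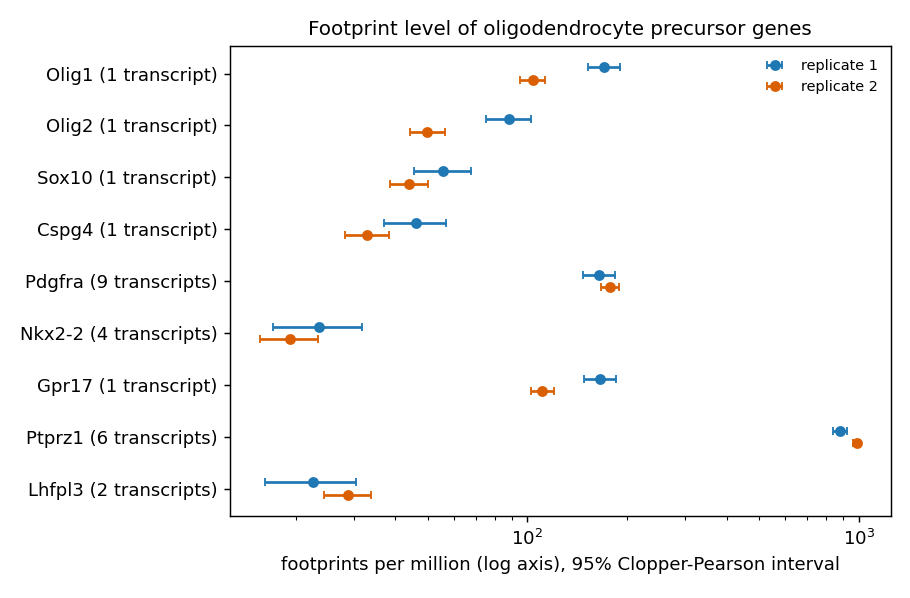
Footprint level of the 9 oligodendrocyte precursor genes in replicate 1 and replicate 2 (points, CPM on a log axis) with Clopper-Pearson 95% intervals; the number of annotated transcripts is given beside each name. Ptprz1 stands above the rest at 876 and 986 CPM, and Olig1, Olig2 and Gpr17 sit clearly lower in replicate 2.

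Among the transcription factors, Olig1 and Olig2 were the most unequal between the libraries. Olig1 (ENSMUSG00000046160) encodes a basic helix-loop-helix factor needed for oligodendrocyte maturation. Replicate 1 held 319 of its footprints and replicate 2 held 546, or 171 CPM (153 to 191) and 104 CPM (95.2 to 113). Olig2 (ENSMUSG00000039830), the related factor that specifies the lineage, had 164 and 263 footprints, or 87.8 CPM (74.9 to 102) and 49.98 CPM (44.1 to 56.4). Both genes were lower in replicate 2, with intervals that did not overlap. The log2 ratio was -0.85 for Olig1 (exact interval -1.05 to -0.64; adjusted p 6.47e-14) and -0.94 for Olig2 (-1.23 to -0.65; adjusted p 8.65e-09). Per kilobase of transcript, Olig1 exceeded Olig2 by 2.19-fold in replicate 1 and 2.34-fold in replicate 2, so the genes kept nearly the same proportion to each other. In the RefSeq gene table of GRCm38.p6 they are close neighbours, with a predicted gene listed between them.

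Sox10 (ENSMUSG00000033006) encodes a high-mobility-group factor that acts through the whole oligodendrocyte lineage and also in the neural crest. Its count was 104 in the first library and 232 in the second, or 55.7 CPM (45.5 to 67.5) and 44.1 CPM (38.6 to 50.1). The CPM intervals overlapped, and the log2 ratio of -0.46 (-0.80 to -0.12) passed the exact binomial test narrowly, at an adjusted p of 0.0453. The call was lost with library totals in place of TMM (adjusted p 0.178) and was held under 3 of 10 alternative settings, over which the adjusted p ranged from 0.0322 to 1. Nkx2-2 (ENSMUSG00000027434), a homeodomain factor that times the start of differentiation, had the fewest footprints of the factors, before any correction for length. Its count was only 44 and 101, or 23.6 CPM (17.1 to 31.6) and 19.2 CPM (15.6 to 23.3). Its log2 ratio of -0.42 had an interval from -0.95 to 0.12, an interval that also contains the -0.85 of Olig1, so at this depth the libraries could not be separated for Nkx2-2.

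Of the surface receptors, Gpr17 was called and Pdgfra was not. Pdgfra (ENSMUSG00000029231), the receptor through which platelet-derived growth factor drives precursor division, held 308 and 935 footprints. This was 165 CPM (147 to 184) and 178 CPM (166 to 189), with a log2 ratio of -0.02 whose interval ran from -0.21 to 0.17. Gpr17 (ENSMUSG00000052229), a G protein-coupled receptor of the stage between precursor and myelinating cell, had nearly the same count as Pdgfra in replicate 1, at 310 footprints, but only 585 in replicate 2. In CPM these counts are 166 (148 to 186) and 111 (102 to 121), without overlap. The log2 ratio was -0.71 (-0.91 to -0.50; adjusted p 6.94e-10, exact binomial test). Per kilobase, Gpr17 stood at 0.553 of Pdgfra in replicate 1 and 0.366 in replicate 2.

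Of the remaining surface proteins, Cspg4 was called and Ptprz1 and Lhfpl3 were not. Cspg4 (ENSMUSG00000032911) encodes NG2, the chondroitin sulfate proteoglycan by which precursors are commonly stained. It was covered by 86 and 173 footprints, or 46.1 CPM (36.8 to 56.9) and 32.9 CPM (28.2 to 38.2). Its log2 ratio was -0.61 (-0.99 to -0.22; adjusted p 0.0144, exact binomial test), a call that held under 5 of 10 alternatives, with adjusted p from 0.00342 to 1. Ptprz1 (ENSMUSG00000068748) encodes a receptor-type tyrosine phosphatase that carries chondroitin sulfate and binds pleiotrophin. It was by far the most covered member, with 1636 and 5190 footprints, or 876 CPM (834 to 920) and 986 CPM (960 to 1014). The log2 ratio was 0.04 (-0.04 to 0.13) and was not called with TMM, but it was called higher under 2 of 10 alternatives. With library totals the ratio was 0.17 (adjusted p 0.000425), and against the median of genes in its bin of footprint density it was 0.24 (adjusted p 1.53e-07, exact binomial test). Lhfpl3 (ENSMUSG00000106379), a membrane protein of the lipoma HMGIC fusion partner-like family, had 42 and 151 footprints, or 22.5 CPM (16.2 to 30.4) and 28.7 CPM (24.3 to 33.7). Its intervals overlapped, and the log2 ratio of 0.22 had a wide interval from -0.28 to 0.75.

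In all, 5 of the 9 genes were called lower in replicate 2 (Olig1, Olig2, Sox10, Cspg4 and Gpr17) and none higher. Over all genes tested, 11.5% were called lower and 5.95% higher, or 17.4% in either direction (a share of 2861 in 16427). With library totals the members gave 3 calls lower and 1 higher, Ptprz1, and all genes 7.47% lower, 11.5% higher and 19.0% either way. The median log2 ratio of the 9 genes was -0.46, beside 0.01 over all genes tested, and 7 of the 9 lay below 0. When edgeR's exact test with a common dispersion (biological coefficient of variation 0.167, estimated from the same pair of libraries) replaced counting error, no member was called, beside 11 of all genes. An unadjusted p under 0.05 in that test was reached by 3 of the 9 members and by 719 of the 16427 genes.

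**Figure D2:**
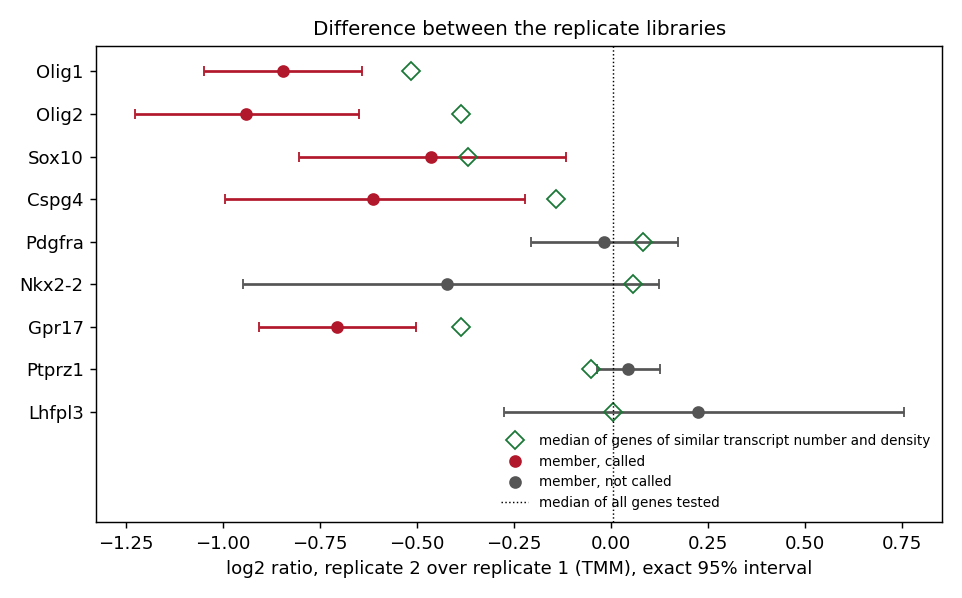
Log2 ratio of replicate 2 over replicate 1 for each gene (points, with exact 95% intervals from counting error), coloured by whether the exact binomial test called it. Diamonds give the median of coding genes with a similar number of transcripts and a similar density, from -0.52 for the genes like Olig1 to 0.08 for those like Pdgfra, and the dotted line the median of all genes tested, 0.01.

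The called members shared a feature that the choice of genes did not use: each of the 5 had 1 annotated transcript, while the 4 not called had from 2 to 9. The same gradient was present across the table, a comparison chosen after the data were examined. Among coding genes with 1 annotated transcript, the median log2 ratio was -0.29 and 25.6% of 3412 genes were called lower in replicate 2 (26.4% in either direction). For 2 to 3 transcripts, the class of Lhfpl3, 14.6% were called lower and 17.2% either way, and for 4 to 5, the class of Nkx2-2, 8.46% and 13.9%. For 6 to 9, the class of Pdgfra and Ptprz1, the shares were 5.54% and 16.9%. Among genes with 10 or more transcripts the median was 0.21, and 2.76% of 1593 were called lower and 25.4% either way. The share called lower was also larger at higher footprint density (footprints per kilobase) within the genes of 1 transcript. With all genes tested put into 10 equal bins of density, it was 4.45% in the bin that holds Cspg4, 38.6% in that of Sox10, 48.7% in that of Olig2 and Gpr17, and 69.7% in that of Olig1. The members' 5 calls are therefore to be read against these shares rather than against 11.5%. The bins match density and not count, on which a call also depends. Cspg4 was at percentile 61.3 of the genes tested by mean CPM but 18.6 by density, and Gpr17 at 89.7 but 62.0. A comparison with genes of similar count was not made.

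Measured against coding genes of similar transcript number in the same density bin, 3 of the 9 genes were called, all lower in replicate 2, where 8.41% of all genes were called in either direction, 4.72% lower and 3.69% higher. Olig2 was 0.55 below the median of such genes on the log2 scale (adjusted p 0.00443, exact binomial test), Olig1 0.33 below (adjusted p 0.0211) and Gpr17 0.32 below (adjusted p 0.0309). Sox10 was then 0.09 below, with an interval from -0.43 to 0.25, and was no longer called. Cspg4 was 0.47 below, with an interval from -0.85 to -0.08 and an adjusted p of 0.127. How fragments that match several transcripts or that are duplicates were handled is not stated, and the part of that handling in these ratios was not tested.

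**Figure D3:**
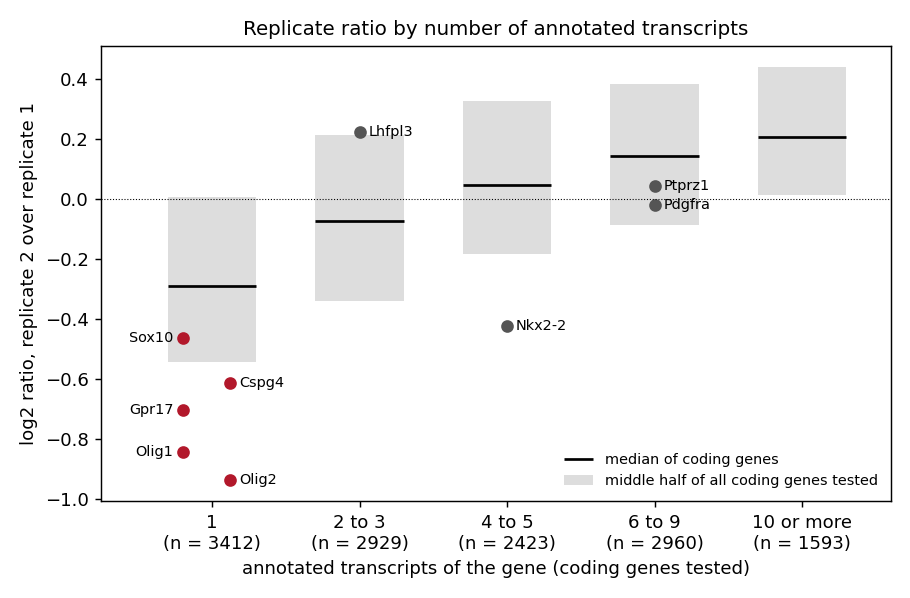
Log2 ratio of replicate 2 over replicate 1 against the number of annotated transcripts, for coding genes tested; grey boxes span the 25th to 75th percentile, black lines are medians and points are the precursor genes (red where called). Medians climb from -0.29 for genes with 1 transcript to 0.21 for those with 10 or more, and all 5 called precursor genes are in the first class.

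Levels of different genes were compared as density, the CPM per kilobase of transcript, computed for each transcript and summed over the gene. Ptprz1 had the highest density, with 140 in replicate 1 and 164 in replicate 2 (152 ± 16.9, SD, n = 2), at percentile 94.7 of the genes tested. Olig1 followed with 79.04 and 47.995 (63.5 ± 21.9), and Pdgfra with 57.8 and 58.5 (58.1 ± 0.534). Olig2 had 36.05 and 20.5, Gpr17 31.96 and 21.4, Nkx2-2 23.8 and 15.8, and Sox10 20.5 and 16.3. Lhfpl3 had 7.43 and 9.61, and Cspg4 was the lowest at 5.72 and 4.08 (4.90 ± 1.16), at percentile 18.6. In this order Olig1 and Pdgfra were not separated, since their ranges over the replicates overlapped, nor was any neighbouring pair among Olig2, Gpr17, Nkx2-2 and Sox10. Ptprz1 above Olig1, Pdgfra above Olig2, Sox10 above Lhfpl3 and Lhfpl3 above Cspg4 were separated in both libraries. The place of the genes with several transcripts rests on the summing. With the highest transcript alone, Ptprz1 was at 48.1 and 51.9 (mean 49.97), a range that overlapped that of Olig1 (mean 63.5). Pdgfra was then at 7.31 and Nkx2-2 at 5.60. Cspg4 had the lowest mean on that scale too, but its range overlapped that of Nkx2-2, at 5.81 and 5.38.

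The order depended on which length was used, and the members differ in how much of the transcript is coding. Coding sequence made up 19.6% of Gpr17-001 and 22.1% of Lhfpl3-001, whose 3′ untranslated regions were 3992 and 2294 nucleotides long. It made up 86.8% of Cspg4-201 and 86.0% of Ptprz1-001. Per kilobase of coding sequence, Olig1 was at 175 ± 60.6, Ptprz1 at 167 ± 14.5 and Gpr17 at 136 ± 38.05 (SD, n = 2), and these neighbours overlapped. Pdgfra was at 88.8 ± 1.16, Olig2 at 70.9 ± 27.5, Lhfpl3 at 49.6 ± 11.8, Sox10 at 35.6 ± 5.86 and Nkx2-2 at 23.5 ± 2.13. Cspg4 remained lowest at 5.65 ± 1.34. Gpr17 stood above Pdgfra per coding kilobase and below it in density summed over transcripts, with separate ranges in both cases. When the count of Pdgfra was divided by its longest transcript its density was 25.1, beside 26.7 for Gpr17 and 28.3 for Olig2. That value lay inside the ranges of Gpr17 (21.4 to 31.96) and Olig2 (20.5 to 36.05) over the replicates. Gpr17 and Pdgfra were therefore not separated per transcript kilobase with this choice. Ptprz1 was at 115 when divided by its longest transcript. The table does not say where in a transcript a footprint lay.

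**Figure D4:**
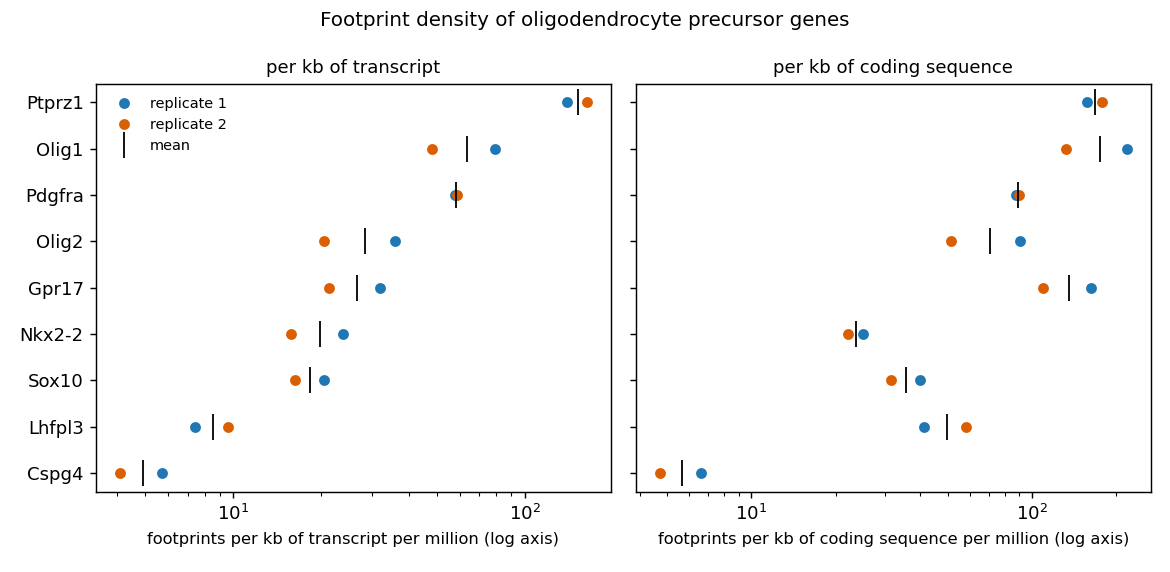
Footprint density of each gene in replicate 1 and replicate 2 (points) with the mean (bar), per kilobase of transcript at left and per kilobase of coding sequence at right, both scaled to 1000000 footprints, on log axes. Cspg4 is lowest on both scales at 4.90 and 5.65, while Gpr17 moves from 26.7 to 136.

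The 9 genes had 26 annotated transcripts, and the 19 protein-coding ones held 97.7% ± 0.364 of the footprints (SD, n = 2). Most members with several transcripts spread their footprints over more than 1 of them. Ptprz1-001, which encodes 2312 amino acids, held 44.3% of the gene's footprints in replicate 1 (41.8 to 46.7) and 42.4% in replicate 2 (41.1 to 43.8). Ptprz1-002, with 1612 amino acids, held 35.9% and 36.1%, and Ptprz1-003, with 1463, held 18.0% and 19.3%. Ptprz1 is known to be made as full-length and shortened receptors and as a secreted form, phosphacan; which annotated transcript gives which form is not stated in the table. Pdgfra-006 and Pdgfra-001, which share a coding length of 3270 nucleotides, held 30.5% and 27.3% in replicate 1 and 27.9% and 26.5% in replicate 2. Pdgfra-002 held 13.3% and 15.3%, and Pdgfra-003 held 13.0% and 13.7%.

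Nkx2-2-002 held 52.3% of its gene's footprints in replicate 1 (36.7 to 67.5) and 59.4% in replicate 2 (49.2 to 69.1), and Nkx2-2-001 held 31.8% and 31.7%. Lhfpl3-001, encoding 228 amino acids, held 85.7% (71.5 to 94.6) and 78.8% (71.4 to 85.03), with the rest on Lhfpl3-002. The share of the leading transcript was not called by a two-sided Fisher's exact test in any of these 4 genes (adjusted p of 1 in each), with unadjusted p from 0.197 for Ptprz1 to 0.468 for Nkx2-2, and 0.178% of 10129 genes were called by this test. These values rest on how shared fragments were given to transcripts, which is not stated.

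Some members overlap other annotated genes, and strand use is not stated, so footprints of the partners cannot be told apart there. In RefSeq, Nkx2-2 overlaps the antisense gene Nkx2-2os, which had 1 and 0 footprints, and 6430503K07Rik, which had 0 and 3. Gpr17 overlaps Lims2, with 11 and 37 footprints, and Lhfpl3 overlaps Gm6564, with 12 and 43. The count of Lims2 was small beside that of Gpr17, but that of Gm6564 reached 12 against 42 for Lhfpl3 in replicate 1. Pdgfra overlaps Mir7025, which had 0 and 0. Olig2 overlaps Gm52261, Ptprz1 overlaps Gm30493 and Gm46954, and Lhfpl3 also overlaps A930003O13Rik and Gm3668. No count was available for these last partners.

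The signalling partners of the surface receptors were measured in the same libraries. The calls of this and every further gene list stand beside the all-gene shares of 5.95% higher and 11.5% lower, or, against genes of similar transcript number and density, 3.69% higher and 4.72% lower. Over all genes tested, the share called lower was 0.913% in the lowest of the 10 bins of density and 42.4% in the highest. Calls in a list of dense genes are therefore not to be read against 11.5% alone. None of the 6 genes for platelet-derived growth factors and their receptors was called. Pdgfa, the main ligand of the alpha receptor, had a density of 40.5 ± 2.88 (SD, n = 2) beside 58.1 ± 0.534 for Pdgfra. Pdgfb had 8.35 ± 0.903, Pdgfc 4.99 ± 1.40, Pdgfd 1.68 ± 0.863 and the beta receptor Pdgfrb 8.18 ± 0.240. Of the 7 genes listed with Ptprz1 as ligands and partners, 1 was called. Pleiotrophin (Ptn), a secreted ligand of Ptprz1, had the highest density of that list at 285 ± 85.1 and a log2 ratio of -0.75 (adjusted p 1.73e-44, exact binomial test), while Ptprz1 itself was at 0.04. Midkine (Mdk), the related growth factor, had a density of 114 ± 2.28, and the adhesion protein contactin 1 (Cntn1) 146 ± 12.01. The phosphatase Ptprg, a relative of Ptprz1, had 48.3 ± 3.13, the adhesion protein Nrcam 41.7 ± 4.43 and the matrix protein Tnr 39.4 ± 3.28. Against genes of similar transcript number and density, Ptn stayed lower by 0.34 (adjusted p 5.65e-09, exact binomial test), and Cntn1 and Nrcam were each higher by 0.26 (adjusted p 1.86e-06 and 0.00499, exact binomial test).

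Sonic hedgehog signalling induces Olig2 and Nkx2-2 in the embryo, and its genes were covered unevenly at postnatal day 5. Of 10 genes, 1 was called lower and none higher, the co-receptor gene Gas1, at a log2 ratio of -0.74 (adjusted p 0.0196, exact binomial test). It has 1 annotated transcript and was not called against similar genes (adjusted p 0.208). Shh, the ligand, had 10 and 31 footprints and a density of 1.98 ± 0.133 (SD, n = 2). The receptor Ptch1, with 80 and 221 footprints, had a density of 9.58 ± 1.01, the co-receptor Boc 8.93 ± 0.341, the transducer Smo 6.58 ± 1.25 and the target factor Gli1 1.03 ± 0.203. The repressor Sufu was the densest of the list at 16.7 ± 4.10. Of 10 genes known to hold back oligodendrocyte differentiation, 3 were called lower in replicate 2 (Gpr17 itself, Id4 and Hes5) and 1 higher (Sox6). Hes5, an effector of Notch, had a log2 ratio of -0.79, Id2 one of -0.34 that was not called, and Lingo1, the densest of the list at 98.2 ± 1.85, one of -0.09. Against genes of similar transcript number and density, Gpr17 and Hes5 (adjusted p 0.0351) stayed lower, Id4 (adjusted p 0.127) and Sox6 (adjusted p 0.122) were not called, Notch1 was called lower (adjusted p 0.0385) and Lingo1 higher by 0.32 (adjusted p 0.000536, exact binomial tests).

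The rest of the lineage gave calls in both directions. Of 18 other precursor genes, 3 were called higher in replicate 2 (Sox6, Vcan and Pcdh15) and 2 lower (Cspg5 and C1ql1), with a median log2 ratio of -0.07. The densest were Cspg5, a neural proteoglycan, at 217 ± 28.8, Sox8, a relative of Sox10, at 60.8 ± 4.42, and Vcan, the proteoglycan versican, at 54.0 ± 9.73 (SD, n = 2). Of 12 genes of cells committed to differentiate, the densest were Sirt2 (158 ± 10.8), Fyn (138 ± 19.5) and Tcf7l2 (86.3 ± 12.95), and 1 was called, Myrf, the factor that switches on myelin genes, with 15 and 133 footprints and a log2 ratio of 1.53 (adjusted p 0.000225, exact binomial test). Of 13 myelinating-stage genes tested, 4 were called higher (Mbp, Mag, Mobp and Ugt8a) and none lower, with a median of 0.47. Mbp, myelin basic protein, had a density of 201 ± 83.5, Cnp 126 ± 10.5 and Mag 43.7 ± 15.1. Mobp had 16 and 127 footprints and a log2 ratio of 1.37. Opalin, a late marker, had no footprint in either library, which allows up to 1.61 CPM in replicate 1 and 0.570 in replicate 2.

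Against genes of similar transcript number and density the medians were -0.32 for the 9 members, -0.01 for the other precursor genes, 0.20 for the committed genes and 0.35 for the myelinating genes. Calls on that scale numbered 4 higher and none lower for the myelinating genes, 1 higher and none lower for the committed genes, 1 higher and 2 lower for the other precursor genes, and none higher and 3 lower for the members. On it Cnp was gained and Mag lost among the myelinating genes. Among the other precursor genes Vcan and Cspg5 stayed called, Sox6 (adjusted p 0.122), Pcdh15 (adjusted p 0.538) and C1ql1 (adjusted p 0.206) were not, and Megf11 was called lower (adjusted p 0.0348, exact binomial tests). Differences between the lists were not tested.

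**Figure D5:**
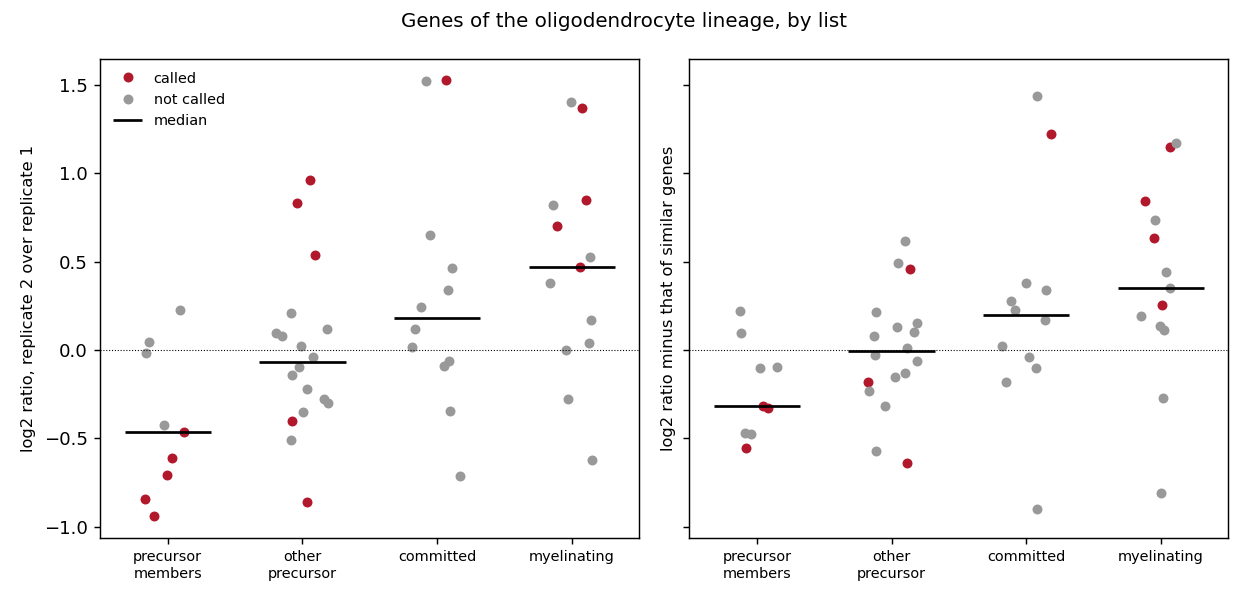
Log2 ratio of replicate 2 over replicate 1 for genes of each lineage list (points, red where called; black lines are medians), as measured at left and after subtracting the median of coding genes of similar transcript number and density at right. Medians run from -0.46 for the precursor members to 0.47 for the myelinating genes at left, and from -0.32 to 0.35 at right.

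Markers of other cells that share members were read beside them. The 8 Schwann cell markers took 0.0375% of replicate 1 and 0.0569% of replicate 2. Of the 6 tested, 2 were called higher (Pmp22 and Mbp, which oligodendrocytes share) and 1 lower (Pou3f1), and Ncmap was at 0 in replicate 1. Mbp held 431 of the 700 footprints of this list in replicate 1 and 2158 of 2993 in replicate 2. Without Mbp the share was 0.0144% (0.0127 to 0.0162) and 0.0159% (0.0148 to 0.0170), with overlapping intervals. The part of Schwann cells in the count of Sox10 was not tested. The 10 pericyte and mural markers took 0.0403% and 0.0387%, and 3 of 8 tested were called lower (Kcnj8 at -1.33, Notch3 and Acta2), as was Cspg4. None of these 3, nor Cspg4, was called against genes of similar transcript number and density. Their densest genes were Vtn (124 ± 12.5), Rgs5 (35.8 ± 0.889) and Acta2 (20.9 ± 4.49). The 9 fibroblast markers took 0.118% and 0.107%, with 3 called lower (Col1a1, Col1a2 and Igf2) and 1 higher (Dcn), the same 4 genes that were called against similar genes, while Pdgfra was not called. The 12 markers of astrocytes and radial glia took 0.545% and 0.461%, with 5 called lower (Apoe, Fabp7, Aldoc, Gja1 and Sox9) and none higher, of which Apoe, Fabp7 and Aldoc stayed called against similar genes, while Ptprz1 was not called. Apoe had the highest density of these markers at 2158 ± 461, and no marker of these lists was at 0 in both libraries. Their part in the members' counts was not tested. Among the other lists, 6 of 11 neuronal markers were called lower, including Tubb3 (density 590 ± 242) and Stmn2 (density 465 ± 153) but not Map2 (density 628 ± 52.6), 2 of 8 microglial markers lower (C1qa and C1qb) and 1 higher (P2ry12), and 1 of 7 endothelial markers lower (Cldn5). Against similar genes 3 neuronal markers (Tubb3, Stmn2 and Map2) and Cldn5 were called lower, P2ry12 higher, and C1qa, C1qb and Pou3f1 were not called.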

How the data were processed

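The authors deposited footprint counts for each annotated transcript as whole numbers, not normalized, for both replicates. Trimmomatic 0.36, Bowtie2 2.2.6, SAMtools and the build GRCm38.p4 are named in the submitters' processing notes, without their order; the annotation release and the treatment of duplicates, strand and shared fragments are not given in the sources used here. Per the labels, polysome fractions were digested with RNase I and short fragments selected by size. A gene's symbol is its transcript name without the trailing number, and its count is the sum over its transcripts. Members and gene lists were chosen with earlier results of these data known. There is 1 group, so edgeR's quasi-likelihood test could not be fitted. Replicate counts were instead set against each other by exact binomial tests against TMM effective library sizes (edgeR 4.0.16; scipy 1.17.1), for genes whose mean count reached 10, with library totals giving CPM. Leading transcripts were compared by Fisher's exact test, adjusted over all genes with at least 2 transcripts in place of the members alone. DESeq2 1.42.0 gave alternative size factors. The test was checked on simulated counts that held counting noise and known changes only. Their biological coefficient of variation was 0.0646, against 0.167 for the real pair. The check therefore does not give the error rate of the test in these libraries. Text names all members; of the other 14 lists, the 3 densest genes and those called with a log2 ratio of at least 1 in size, all genes of the growth factor, Ptprz1 and hedgehog lists, and, after their values were seen, the called genes of the remaining lists. Transcripts are named where they lead a gene or hold at least 10% of it. No sequence or coordinate is given. Some genes of the marker lists are not reported here and were left out of the lists' counts.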

Additional observations from a re-analysis of the deposited data

How the results depend on the processing

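The count of 5 called genes became 3 with the highest transcript alone (9.41% of all genes called), 3 with the ratio of genes of similar transcript number (12.4%), and 3 with that ratio within bins of density (8.41%). It became 0 with edgeR's exact test (0.0670% of all genes called). In that test 3 members had an unadjusted p under 0.05, as did 719 of the 16427 genes tested. In the other 6 settings the count of called members stayed within 1.5 times, with 9.93% to 26.8% of all genes called. Olig1, Olig2 and Gpr17 were called in 9 of 10 settings each, edgeR's exact test being the exception. Those 9 settings all apply the exact binomial test to the same 2 libraries. They vary the scaling, the filter or the transcripts used and do not cover variation between animals. The settings by transcript number were chosen after the data were examined. Pdgfra, not called in any setting, changed sign to 0.11 with library totals and 0.044 with the ratio of its density bin, and Ptprz1 changed to -0.10 with the ratio of genes of similar transcript number. The summed share was 0.205% with protein-coding transcripts alone in members and total and 0.179% with the highest transcript alone, whose totals are smaller by construction. Leaving out 1 replicate returns the other's share, 0.155% or 0.161%, and tests nothing. No paired analysis was possible because there is 1 group. Depth limits Nkx2-2 and Lhfpl3 most.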

Other observations

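Relatives of the members were read after the members' values were known. Olig3, the third Olig gene, had 1 footprint in replicate 1 and 11 in replicate 2, against 319 and 546 for Olig1. Sox9, which is related to Sox10 and marks radial glia and astrocytes, had 190 and 423 footprints and a log2 ratio of -0.47, beside a median of -0.37 for genes of 1 transcript in its density bin, which is also that of Sox10. Lhfpl4, which helps to anchor GABA receptors at synapses, had 158 and 320 footprints, and its density of 15.3 ± 3.54 (SD, n = 2) was above the 8.52 ± 1.54 of Lhfpl3, with ranges that did not overlap. The related Lhfp (28.6 ± 4.84), Lhfpl2 (20.8 ± 5.99) and Lhfpl5 (12.6 ± 4.03) were also denser than Lhfpl3, while Lhfpl1 had 0 and 3 footprints.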
